A study of Homo sapiens with 8 samples.

Results

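The constitutive proteasome subunits are 39 genes, chosen by name from the 36474 genes counted in LNCaP cells. LNCaP is an established line of human prostate cancer cells grown from a lymph node metastasis. The genes are the 7 alpha-ring and 7 beta-ring genes of the catalytic core (PSMA1 to PSMA7 and PSMB1 to PSMB7), the 6 ATPases of the base (PSMC1 to PSMC6), the 4 other base genes (PSMD1, PSMD2, PSMD4 and ADRM1), 8 lid genes, 3 chaperones that help to assemble the base (PSMD5, PSMD9 and PSMD10) and 4 genes of alternative activators (PSME1 to PSME4). After starvation without serum and calcium, cells were given recombinant human ASPN (asporin, a proteoglycan secreted by stroma) at 100 ng/mL, and RNA was sequenced at 0 h, 12 h and 24 h. There were 2 libraries at 0 h, 3 at 12 h and 3 at 24 h, all of the same line and medium. No library used here was kept for 12 h or 24 h without ASPN, so time in starvation medium and ASPN cannot be told apart in any comparison with 0 h.

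The proteasome is the protease that degrades proteins tagged with ubiquitin. Its barrel-shaped core holds the active sites in the beta rings and closes its entrance with the alpha rings, and a regulatory particle of base and lid binds ubiquitin chains, removes them, unfolds the substrate and threads it into the core. The activators encoded by the PSME genes bind the same ends of the core without this ubiquitin machinery. Subunit genes are known to be transcribed together, largely by NRF1 (gene NFE2L1), which is held at the endoplasmic reticulum and is released when proteasome activity is low. NRF1 acts as a dimer with a small MAF protein at antioxidant response elements.

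The promoters of the 6 members that passed the test against 0 h are printed first, so that the letters shared by these genes can be set beside how they moved. Each line gives the 250 bases before the transcription start in RefSeq, build GRCh38.p14, from 5′ to 3′ on the gene's own strand. Capitals mark matches on either strand to TGANNNNGC, the core of the antioxidant response element, or to CCAAT, the core of the site of the factor NF-Y. The stretches are chr2:53970994-53971243, minus strand for PSME4, chr17:42833147-42833396, plus strand for PSME3, chr17:38752491-38752740, plus strand for PSMB3, chr19:38374321-38374570, plus strand for PSMD8, chr17:67366578-67366827, minus strand for PSMD12 and chrX:108091543-108091792, minus strand for PSMD10.
PSME4: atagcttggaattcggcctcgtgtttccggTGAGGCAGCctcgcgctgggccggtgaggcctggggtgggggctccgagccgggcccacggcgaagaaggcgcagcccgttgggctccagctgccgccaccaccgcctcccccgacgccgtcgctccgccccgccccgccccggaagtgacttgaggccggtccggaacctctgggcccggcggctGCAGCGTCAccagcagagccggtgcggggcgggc
PSME3: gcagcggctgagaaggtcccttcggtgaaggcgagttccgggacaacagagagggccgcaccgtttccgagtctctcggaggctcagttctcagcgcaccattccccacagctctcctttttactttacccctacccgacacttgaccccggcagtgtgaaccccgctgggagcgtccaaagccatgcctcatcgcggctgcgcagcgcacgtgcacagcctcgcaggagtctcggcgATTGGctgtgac
PSMB3: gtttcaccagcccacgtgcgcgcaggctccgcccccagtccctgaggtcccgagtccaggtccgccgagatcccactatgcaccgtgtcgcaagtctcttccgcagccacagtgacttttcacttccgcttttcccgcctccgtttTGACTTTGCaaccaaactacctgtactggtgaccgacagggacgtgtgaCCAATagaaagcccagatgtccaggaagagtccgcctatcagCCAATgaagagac
PSMD8: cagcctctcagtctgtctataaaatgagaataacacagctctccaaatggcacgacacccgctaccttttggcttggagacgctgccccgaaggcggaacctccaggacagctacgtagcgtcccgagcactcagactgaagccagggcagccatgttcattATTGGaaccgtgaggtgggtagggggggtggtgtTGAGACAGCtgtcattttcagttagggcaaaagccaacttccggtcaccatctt
PSMD12: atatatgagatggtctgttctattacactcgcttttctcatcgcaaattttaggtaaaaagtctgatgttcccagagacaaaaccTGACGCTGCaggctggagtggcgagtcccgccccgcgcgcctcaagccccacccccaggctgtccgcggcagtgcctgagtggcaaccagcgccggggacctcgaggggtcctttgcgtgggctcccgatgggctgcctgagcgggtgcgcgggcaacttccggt
PSMD10: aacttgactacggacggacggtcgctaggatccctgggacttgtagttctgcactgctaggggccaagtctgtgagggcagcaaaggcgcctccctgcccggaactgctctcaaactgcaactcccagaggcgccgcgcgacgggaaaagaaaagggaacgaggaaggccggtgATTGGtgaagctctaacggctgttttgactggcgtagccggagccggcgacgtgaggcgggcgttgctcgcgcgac

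TGANNNNGC was matched in 4 of these 6 stretches, those of PSME4, PSMB3, PSMD8 and PSMD12, and PSME4 held 2 matches, at -220 and -34 from the start. The stretches of PSME3 and PSMD10 held a CCAAT match and no TGANNNNGC. The match in PSMB3, which passed as higher at 12 h, lay at -104, and that in PSMD8, which passed as lower at 24 h, lay at -54. Over windows from 250 bases before to 50 after a start, 34 of the 39 members had a promoter in the RefSeq table, with 41 promoters in all. TGANNNNGC was found in 26 of the 41 (63.4%), against 41.8% of all 35116 promoters, and CCAAT in 19 of the 41 (46.3%), against 34.6%. Members with and without a match both stood among those that moved, and a match is a run of letters rather than a measured site.

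Library totals ran from 73406825 to 96962135 counts, and the members took between 0.511% and 0.522% of the counts in each library. Values below are CPM (counts divided by library size, on a common scale) scaled by the edgeR normalization factors, with the SD over libraries. The line was checked against its markers. The summed level of 9 luminal prostate genes (KLK3, FOLH1, HOXB13 and others, with all 9 detected) was 5398 to 5421 CPM at 0 h, 5751 to 5794 CPM at 12 h and 5927 to 6089 CPM at 24 h. The sum thus moved with the time point, and its part in the results was not tested. Its genes did not all move in 1 direction. At 12 h KLK3 was higher (log2 fold change 0.49, SE 0.048, adjusted p = 3.4e-08, edgeR) and STEAP2 lower (-0.17, SE 0.047, adjusted p = 0.0125). The 4 leukocyte markers summed to at most 0.102 CPM in any library and the 2 basal markers counted to at most 0.229 CPM. Of 5 fibroblast markers, the sum was 21.2 to 23.8 CPM, nearly all of it COL1A1, and DCN was at 0 counts in both 0 h libraries. Of 3 endothelial markers PECAM1 and CDH5 stayed at or below 0.0572 CPM, and VWF gave 14.8 to 17.3 CPM at 0 h, 13.5 to 15.1 CPM at 12 h and 11.2 to 13.2 CPM at 24 h. VWF was lower at 24 h than at 0 h (log2 fold change -0.38, SE 0.085, adjusted p = 0.00175, edgeR), and its part in the results was not tested. Mitochondrial genes took 6.2% to 7.32% of counts. The unnumbered library at 0 h carries a number in the count table that no time 0 label has, and is called unnumbered here.

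All 39 members were detected and tested among 21071 genes that passed the filter on low counts. Levels were compared between genes as CPM per kilobase of the canonical transcript, averaged over the 8 libraries. The beta ring had the highest median level of the 7 classes, at 158 CPM per kb, followed by the base genes that are not ATPases at 98.3 and the lid at 73.2. The ATPases had a median of 66.3 CPM per kb, the activators 62.6, the alpha ring 36.7 and the base chaperones 4.69. The last 2 include members whose levels may be set by counting in shared exons, and without them the alpha ring had a median of 79.2 CPM per kb over 4 genes, above the lid and the ATPases, and the chaperones 36.8 over 2. The most abundant member per length was PSMB4, a beta subunit without an active site, at 264 CPM per kb. The least abundant in its ring was PSMB2, at 26.2 CPM per kb. PSMA7 led the alpha ring with 213 CPM per kb, PSMC3 the ATPases with 109, PSMD4, a ubiquitin receptor of the base, its class with 159, PSMD8 the lid with 156 and PSME1 the activators with 106. PSME4, with a canonical transcript of 7250 bases, was the lowest activator at 17.1 CPM per kb.

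The 3 proteolytic subunits stood close together in this scale, with PSMB7 at 158, PSMB5 at 148 and PSMB6 at 131 CPM per kb. They encode the trypsin-like, chymotrypsin-like and caspase-like sites. Of their interferon-induced replacements, PSMB8 and PSMB9 were near the limit of detection. PSMB8 had 6 to 26 counts per library and PSMB9 4 to 25, or 0.0681 to 0.286 CPM and 0.0544 to 0.259 CPM, while PSMB5 had 147 to 159 CPM. PSMB10 had 110 to 204 counts, or 1.44 to 2.25 CPM, and 56.1% of its canonical transcript is exon of another gene on the same strand. Its 24 h libraries stood above both at 0 h (log2 fold change 0.39, SE 0.198, adjusted p = 0.197, edgeR). None of the 3 replacements passed the test of edgeR in any of the 3 comparisons, and none had an unadjusted p under 0.05. PSMB11, the thymic beta subunit, had 0 to 3 counts and was not tested, and PSMA8 was not analysed here. The transcripts of this line at every time point were thus mainly those of the constitutive core, as the member list assumes.

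**Figure D1:**
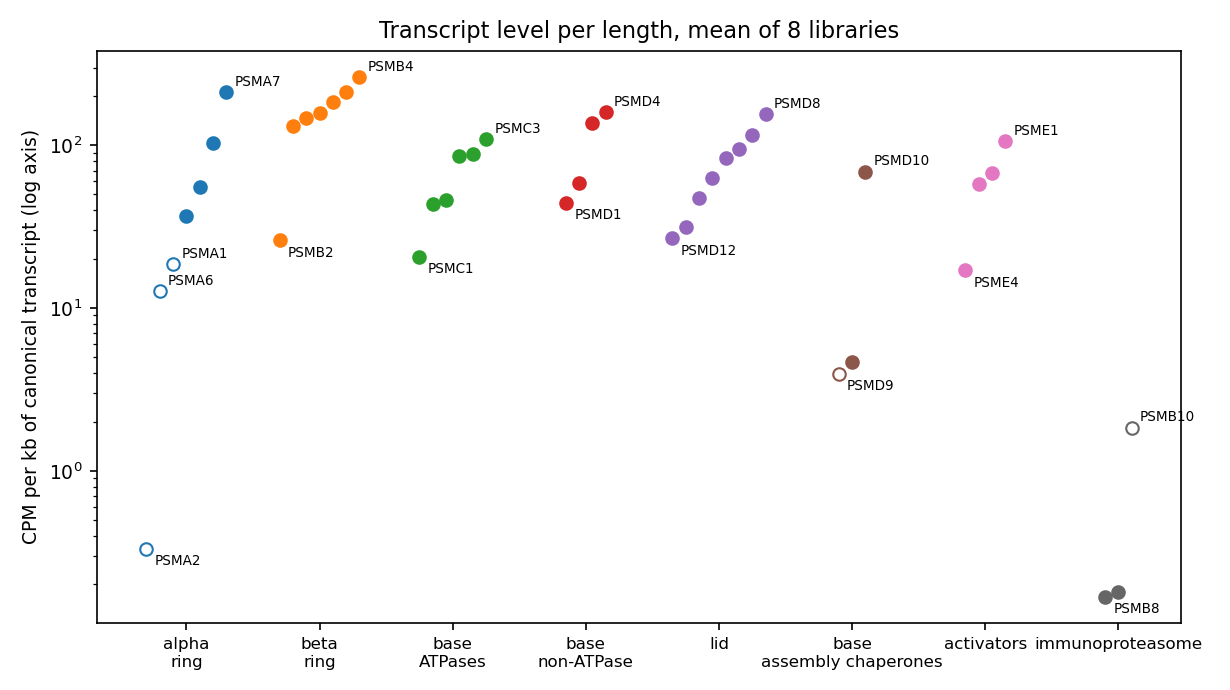
Mean level over the 8 libraries in CPM per kilobase of the canonical transcript (log axis), by class, with 1 point per gene and the immunoproteasome subunits at the right; open points are genes that share over 10% of the canonical transcript with exons of another gene on the same strand. PSMB4 stands highest at 264 and the open point of PSMA2 lowest among the members at 0.331.

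Some levels rest on how reads in shared exons were counted, which is not given in the sources used here. In GENCODE 44, a readthrough gene on the same strand shares 100% of the canonical transcript of PSMA2, 81.4% of PSMA6, 67.0% of PSMA1 and 28.8% of PSMD9. PSMA2 had only 26 to 50 counts per library, and the 3 others had 690 to 2254. These levels may be set by the counting and are not read as expression. Opposite-strand exons cover 83.2% of PSMC1, 51.6% of PSMD7, 26.7% of ADRM1 and 13.7% of PSMC5, and without stated use of strand reads of the partners cannot be told apart. Rows for 22 pseudogenes of members held 271 to 416 counts per library in total. Without the 4 members that share same-strand exons, an alternative chosen after seeing the data, as many members passed in each comparison.

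At 12 h, the subunit transcripts were close to their level at 0 h. Of 39 members, 4 passed the test (adjusted p of at most 0.05 from the quasi-likelihood test of edgeR, Benjamini-Hochberg over all 21071 genes), or 10.3%, where 11.6% of all tested genes passed. PSMB3 was higher, and PSMD10, PSMD12 and PSME4 were lower, where 4.85% of all genes passed upward and 6.75% downward. None reached 1.5-fold, which 1.05% of all genes did while passing. Among 4300 protein-coding genes with a mean of at least 50 CPM, which are closer to most members in depth, 25.9% passed. The count of 4 became 0 without 0 h replicate 1, 1 without 12 h replicate 3, and 2 without 12 h replicate 1 or any 1 of the 24 h libraries. After a correction for GC content and length 4 passed as well, of which 2 were PSMB3 and PSME4, while PSMD14 (higher) and PSMD8 (lower) passed in place of PSMD10 and PSMD12. The median log2 fold change of the members was -0.0047, beside -0.00069 over all genes. The median size of a change, without its sign, was 0.051 on the log2 scale for the members, 0.155 for all genes and 0.086 for those 4300 genes.

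At 24 h against 0 h, 4 of 39 members passed again, or 10.3%, where 16.3% of all genes did. PSME3 was higher, and PSMD8, PSMD10 and PSME4 were lower, beside backgrounds of 7.82% upward and 8.49% downward. None reached 1.5-fold (2.45% of all genes), and 32.3% of the 4300 abundant protein-coding genes passed. The count became 2 (PSMD8 and PSME4) without 0 h replicate 1, 7 without 12 h replicate 1, and 8 after a correction for GC content and length, which kept the 4 and added PSMA4, PSMB3 and PSME1 (higher) and PSMB6 (lower). The median log2 fold change of the members was -0.022, beside -0.0031 over all genes, and the median size of a change was 0.067 for the members, 0.170 for all genes and 0.092 for the abundant genes. Between 12 h and 24 h none of the 39 passed, where 2.72% of all genes did (1.12% upward and 1.61% downward), as did 7.12% of the abundant genes. In that comparison 5 members had an unadjusted p under 0.05 (PSMA4, PSMB6, PSMD8, PSME3 and PSME4), and DESeq2 passed 3 (PSMA4, PSMB6 and PSME4). The comparisons with 0 h share both 0 h libraries, so their values stand side by side and are not 2 separate pieces of evidence.

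The small size of the changes can be given as a limit. The 95% interval of the fold change lay within 1.25-fold in either direction for 38 of 39 members at 12 h, for 37 of 39 at 24 h, and for 38 of 39 between 12 h and 24 h. The exceptions were PSMA2, with its 26 to 50 counts, in every comparison and PSME4 at 24 h. The same held for 39.9%, 37.3% and 48.8% of all genes, and for 87.8%, 82.7% and 97.2% of the abundant protein-coding genes. An absolute log2 fold change under 0.1 was found for 29 members at 12 h, 28 at 24 h and 35 between 12 h and 24 h. Library by library, the median of 38 members (without PSMA2) against the 0 h mean lay between -0.045 and 0.0078 on the log2 scale.

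Counts of members whose libraries did not overlap between time points stood on either side of the share over all genes, and the differences were not tested. They were 12 of 39 at 12 h (3 higher and 9 lower), where 36.9% of all genes did not overlap (17.3% higher and 19.6% lower), and 21 of 39 at 24 h (9 higher and 12 lower), where 43.2% did not (21.5% and 21.7%). Between 12 h and 24 h they were 9 of 39 (3 higher and 6 lower), beside 19.6% (10.3% and 9.33%).

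**Figure D2:**
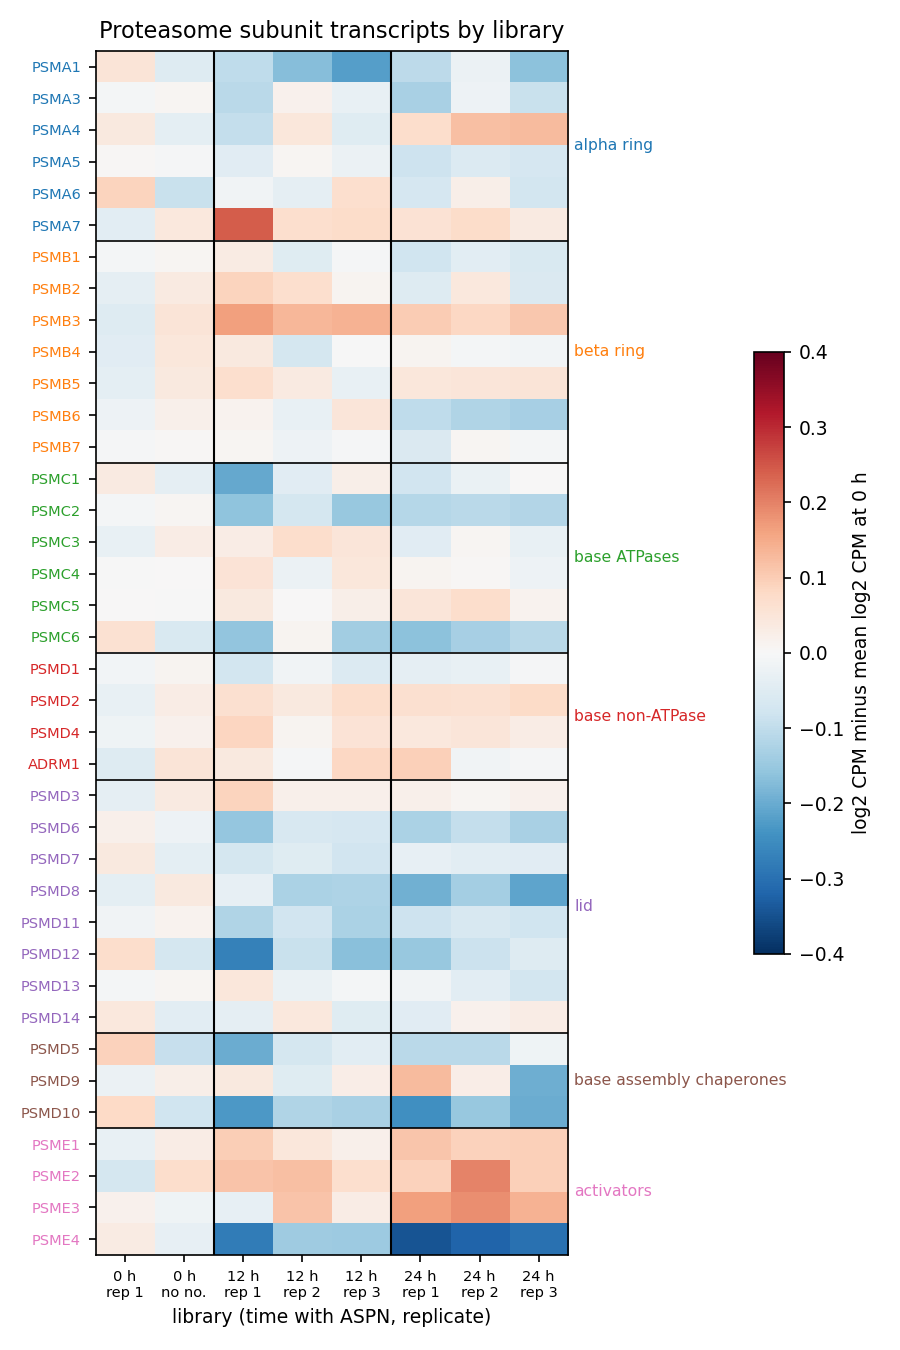
Log2 CPM of each member in each library minus the mean log2 CPM of the 2 libraries at 0 h (colour), in the order of the classes (rows) and time points (columns); PSMA2, with 26 to 50 counts, is left out. Most cells are pale, and the row of PSME4 is the darkest blue at 24 h.

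In the core particle, no alpha subunit passed at any time in the edgeR fit of all libraries (2, 1 and 1 had an unadjusted p under 0.05 at 12 h, at 24 h and between them, and DESeq2 passed PSMA7 at 12 h and PSMA4 between 12 h and 24 h), and 1 beta subunit did. Over all genes 11.6%, 16.3% and 2.72% passed. Median log2 fold changes were -0.021 at 12 h and -0.041 at 24 h for the alpha ring and 0.012 and -0.019 for the beta ring. The alpha medians include PSMA1, PSMA2 and PSMA6, which are not read as expression, and that at 24 h is the value of PSMA6. PSMA3, PSMA4, PSMA5 and PSMA7 had -0.04, -0.03, -0.02 and 0.13 at 12 h and -0.08, 0.11, -0.07 and 0.06 at 24 h. After correction for GC content and length their 12 h values were 0.08, 0.04, 0.09 and 0.08. Those at 24 h were 0.03, 0.15, -0.00088 and 0.05. PSMB3, a beta subunit without an active site, had 127 and 136 CPM at 0 h, 147, 144 and 145 CPM at 12 h, and 141, 139 and 142 CPM at 24 h. All later libraries stood above both 0 h libraries. Its log2 fold change was 0.14 at 12 h (SE 0.046, adjusted p = 0.034, edgeR), followed by 0.10 at 24 h (SE 0.046, adjusted p = 0.160). The 12 h call of PSMB3 was lost without 0 h replicate 1 (log2 fold change 0.10, adjusted p = 0.449), without 12 h replicate 3 (0.0758), without 24 h replicate 1 (0.0562) or 3 (0.0606), and with the 2 time points fitted alone (0.108). With 1 library left at 0 h, that library is assumed to vary like the other groups, here and below.

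The catalytic subunits did not pass. PSMB5 had 147 and 155 CPM at 0 h, 159, 155 and 148 CPM at 12 h, and 156, 157 and 157 CPM at 24 h. Its 12 h libraries overlapped those at 0 h, and its log2 fold change was 0.03 at 12 h (95% interval -0.07 to 0.12) and 0.05 at 24 h (-0.05 to 0.14). PSMB7 had 156 and 157 CPM at 0 h, 158, 155 and 157 CPM at 12 h, and 151, 158 and 156 CPM at 24 h, and its intervals were -0.09 to 0.09 and -0.11 to 0.07. Both genes thus held within narrow limits. PSMB6 had 109 and 112 CPM at 0 h, 112, 108 and 114 CPM at 12 h, and 103, 102 and 101 CPM at 24 h. The 24 h libraries of PSMB6 were below every other library, with a log2 fold change of -0.12 against 0 h (SE 0.046, adjusted p = 0.0814, edgeR) and -0.13 against 12 h (SE 0.041, adjusted p = 0.0922). PSMB6 passed against 0 h by DESeq2 (adjusted p = 0.0475), after a correction for GC content and length (0.0218) and without 12 h replicate 1 (0.0471).

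In the alpha ring, PSMA4 and PSMA7 had the smallest p. PSMA7 was at 190 and 201 CPM at 0 h and 231, 205 and 206 CPM at 12 h, with 12 h replicate 1 the highest, and was at 204, 206 and 200 CPM at 24 h. Its log2 fold change at 12 h was 0.13 (SE 0.050, adjusted p = 0.0916, edgeR), and between 12 h and 24 h it was -0.07 (adjusted p = 0.50). After the GC and length correction the 12 h value was 0.08 (adjusted p = 0.183). The 12 h change of PSMA7 passed without the unnumbered 0 h library (adjusted p = 0.0418, edgeR) or 12 h replicate 2 (0.0362). PSMA4 had 244 and 232 CPM at 0 h, 223, 246 and 230 CPM at 12 h, and 250, 259 and 260 CPM at 24 h. Its 24 h libraries were above the other 5, with a log2 fold change of 0.11 against 0 h (SE 0.046, adjusted p = 0.129) and 0.14 against 12 h (SE 0.041, adjusted p = 0.0669). PSMA4 passed against 0 h after the GC and length correction (0.15, adjusted p = 0.00114) and with the 2 time points alone (0.0494), and against 12 h by DESeq2 (0.0285), after that correction (0.0214) and without 12 h replicate 2 (0.0134). The values of PSMA4 and PSMB6 between 12 h and 24 h had opposite signs, and neither passed in the fit of all libraries.

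The base holds the ring of ATPases that unfolds substrates and the receptors for ubiquitin. None of its 10 members passed at any time in the edgeR fit of all libraries. Over all genes 11.6% passed at 12 h, 16.3% at 24 h and 2.72% between them. Among the ATPases 1 member had an unadjusted p under 0.05 at 12 h, 2 at 24 h and 0 between them, the other base genes had 0 each time, and DESeq2 passed PSMC2 at 12 h. Median log2 fold changes were -0.026 at 12 h and -0.028 at 24 h for the ATPases and 0.045 and 0.033 for the other base genes. PSMC2 had 133 and 134 CPM at 0 h, 120, 127 and 120 CPM at 12 h, and 124, 124 and 123 CPM at 24 h. All 6 later libraries of PSMC2 were lower, by -0.13 at 12 h (SE 0.046, adjusted p = 0.0698, edgeR), followed by -0.11 at 24 h (SE 0.046, adjusted p = 0.0942), without passing. The 12 h change of PSMC2 passed by DESeq2 (0.0319) and without 12 h replicate 2 (0.0256). After the GC and length correction it was -0.02 at 12 h (adjusted p = 0.820, edgeR) and -0.05 at 24 h (adjusted p = 0.442). PSMC6 had a log2 fold change of -0.14 at 24 h (SE 0.053, adjusted p = 0.0733, edgeR), and -0.07 after that correction (adjusted p = 0.246). The 24 h change of PSMC6 passed in 5 of 16 alternatives. These were the fit of the 2 time points alone (0.0323), that of protein-coding genes alone (0.04998), and those without the unnumbered 0 h library (0.0289) or 12 h replicate 1 (0.0313) or 2 (0.0410). PSMD2, the most highly counted member, had 381 and 396 CPM at 0 h and 399 to 410 CPM later, with a log2 fold change of 0.06 at 12 h (SE 0.041, adjusted p = 0.449), followed by 0.07 at 24 h (SE 0.041, adjusted p = 0.309). PSMC3 between 12 h and 24 h (-0.07, SE 0.040, adjusted p = 0.444) and PSMD1 (0.02, SE 0.040, adjusted p = 0.861) had the smallest p of their classes there.

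In the lid, which carries the deubiquitinase PSMD14 and its scaffold, 1 of 8 members passed at each time against 0 h. Both were lower in that fit, where 11.6% and 16.3% of all genes passed and 6.75% and 8.49% passed downward. The class medians were -0.080 at 12 h and -0.060 at 24 h. After correction for GC content and length, lid values at 12 h had either sign. PSMD3 (0.012), PSMD6 (0.0091), PSMD13 (0.0094) and PSMD14 (0.16) were positive. PSMD7 (-0.023), PSMD8 (-0.15), PSMD11 (-0.078) and PSMD12 (-0.061) were negative. Corrected values at 24 h ran from -0.22 (PSMD8) to 0.093 (PSMD14). The class shift at 12 h thus depends on that setting. PSMD12 had 131 and 119 CPM at 0 h, 104, 117 and 111 CPM at 12 h, and 112, 118 and 121 CPM at 24 h. The 12 h libraries of PSMD12 were below both at 0 h, while those at 24 h overlapped them. Its log2 fold change was -0.18 at 12 h (SE 0.053, adjusted p = 0.0258, edgeR), followed by -0.10 at 24 h (SE 0.053, adjusted p = 0.236). The 12 h call of PSMD12 was lost without 0 h replicate 1 (log2 fold change -0.10, adjusted p = 0.494), 12 h replicate 1 (0.114), 12 h replicate 3 (0.0669) or 24 h replicate 2 (0.0562), with the 2 time points alone (0.0757), and after correction for GC content and length (-0.06, adjusted p = 0.334). With that correction the lid members that passed at 12 h were PSMD14, which was higher, and PSMD8, which was lower (-0.15, adjusted p = 0.00252).

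PSMD8, another lid subunit, had 247 and 261 CPM at 0 h, 248, 232 and 233 CPM at 12 h, and 222, 231 and 219 CPM at 24 h. Its 24 h libraries were the lowest 3 of 8. The log2 fold change of PSMD8 was -0.09 at 12 h (SE 0.045, adjusted p = 0.204, edgeR), followed by -0.18 at 24 h (SE 0.045, adjusted p = 0.00498). The 24 h call was kept in 15 of 16 alternatives and was lost without the unnumbered 0 h library (-0.14, adjusted p = 0.0855). PSMD14 itself had 102 and 96.2 CPM at 0 h and 95.9 to 102 CPM later, with 95% intervals of the log2 fold change of -0.11 to 0.08 at 12 h and -0.10 to 0.10 at 24 h. After correction for GC content and length, PSMD14 passed at 12 h with a log2 fold change of 0.16 (adjusted p = 0.00656), and its value therefore depends on that setting.

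Of the base assembly chaperones, 1 of 3 passed, at both times, where 11.6% of all genes passed at 12 h and 16.3% at 24 h. Among the abundant protein-coding genes 25.9% and 32.3% did. The 3 include PSMD9, which is not read as expression. PSMD10 encodes gankyrin, which holds an ATPase until the base is built. It had 117 and 105 CPM at 0 h, 94.4, 102 and 101 CPM at 12 h, and 93.6, 99.8 and 96.5 CPM at 24 h. All later libraries of PSMD10 were below both at 0 h. Its log2 fold change was -0.16 at 12 h (SE 0.052, adjusted p = 0.0375, edgeR), followed by -0.20 at 24 h (SE 0.052, adjusted p = 0.0061). At 12 h the call of PSMD10 was lost in 9 of 16 alternatives. The adjusted p was 0.613 without 0 h replicate 1 (log2 fold change -0.08), 0.132 without 12 h replicate 1, 0.0628 without 12 h replicate 3, and 0.0537, 0.0725 and 0.0640 without 24 h replicates 1, 2 and 3. It was 0.280 after correction for GC content and length, 0.10 with the 2 time points alone and 0.0554 with upper-quartile normalization. At 24 h the call was lost without 0 h replicate 1 (-0.12, adjusted p = 0.259) and without 24 h replicate 1 (0.05001). PSMD5 and PSMD9 had 9.39 to 17.7 CPM and did not pass.

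The activators held the largest change. PSME4 encodes PA200, a nuclear activator linked to histone degradation. It had 144 and 138 CPM at 0 h, 116, 128 and 128 CPM at 12 h, and 111, 113 and 115 CPM at 24 h, from 8428 to 12717 counts per library. The 3 groups of PSME4 did not overlap, and each later time was lower. Its log2 fold change was -0.19 at 12 h (SE 0.048, adjusted p = 0.00875, edgeR), -0.32 at 24 h (SE 0.048, adjusted p = 8.38e-06) and -0.13 between 12 h and 24 h (SE 0.044, adjusted p = 0.0983), or 0.80-fold of the 0 h level at 24 h. The 24 h call of PSME4 was kept in all 16 alternatives, with adjusted p from 8.3e-09 to 0.00103. The 12 h call was lost without 0 h replicate 1 (-0.15, adjusted p = 0.184), and the step from 12 h to 24 h passed in 5 of 17 alternatives.

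The other 3 activators had values above 0 h at 24 h. PSME3, the gene of the nuclear activator PA28 gamma, had 176 and 172 CPM at 0 h, 170, 189 and 178 CPM at 12 h, and 195, 198 and 192 CPM at 24 h. Its 12 h libraries overlapped those at 0 h and its 24 h libraries stood above the other 5. The log2 fold change of PSME3 was 0.04 at 12 h (SE 0.047, adjusted p = 0.688, edgeR), followed by 0.16 at 24 h (SE 0.047, adjusted p = 0.0129). The 24 h call of PSME3 was lost without 0 h replicate 1 (0.18, adjusted p = 0.0531), without the unnumbered 0 h library (0.15, adjusted p = 0.0657) and without 24 h replicate 2 (0.15, adjusted p = 0.0657). PSME1 and PSME2 encode the alpha and beta chains of the interferon-induced activator PA28. PSME1 had 96.1 and 100 CPM at 0 h, 105, 101 and 99.5 CPM at 12 h, and 106, 105 and 105 CPM at 24 h. PSME2 had 47.9 and 52.8 CPM at 0 h, 54.4, 54.6 and 52.7 CPM at 12 h, and 53.6, 57.7 and 53.7 CPM at 24 h. Neither passed in the fit of all libraries, with log2 fold changes at 24 h of 0.10 (SE 0.047, adjusted p = 0.163) and 0.13 (SE 0.055, adjusted p = 0.117). PSME1 passed at 24 h after the GC and length correction (0.11, adjusted p = 0.0331), and PSME2 without the unnumbered 0 h library (0.21, adjusted p = 0.0269).

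**Figure D3:**
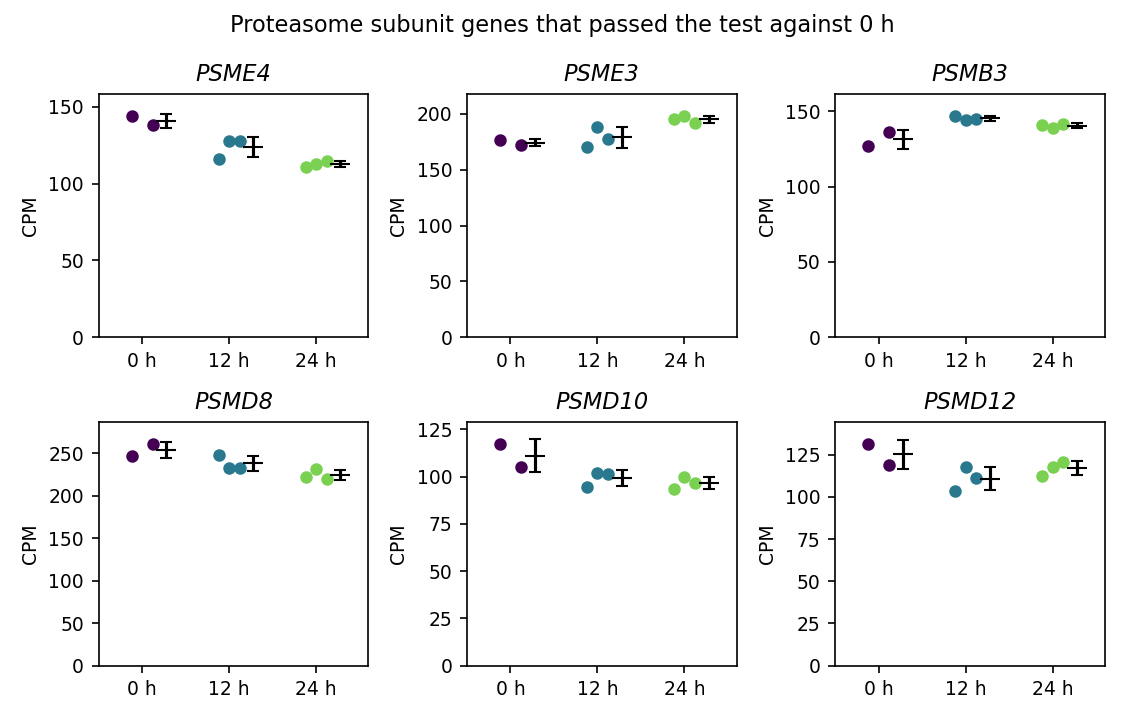
CPM of the 6 members that passed the test against 0 h, with 1 point per library (0 h, 12 h and 24 h on the x axis) and the mean with SD beside the points; the y axes start at 0. PSME4 goes from 138 to 144 CPM at 0 h to 111 to 115 CPM at 24 h, and PSME3 stands at 192 to 198 CPM at 24 h.

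**Figure D4:**
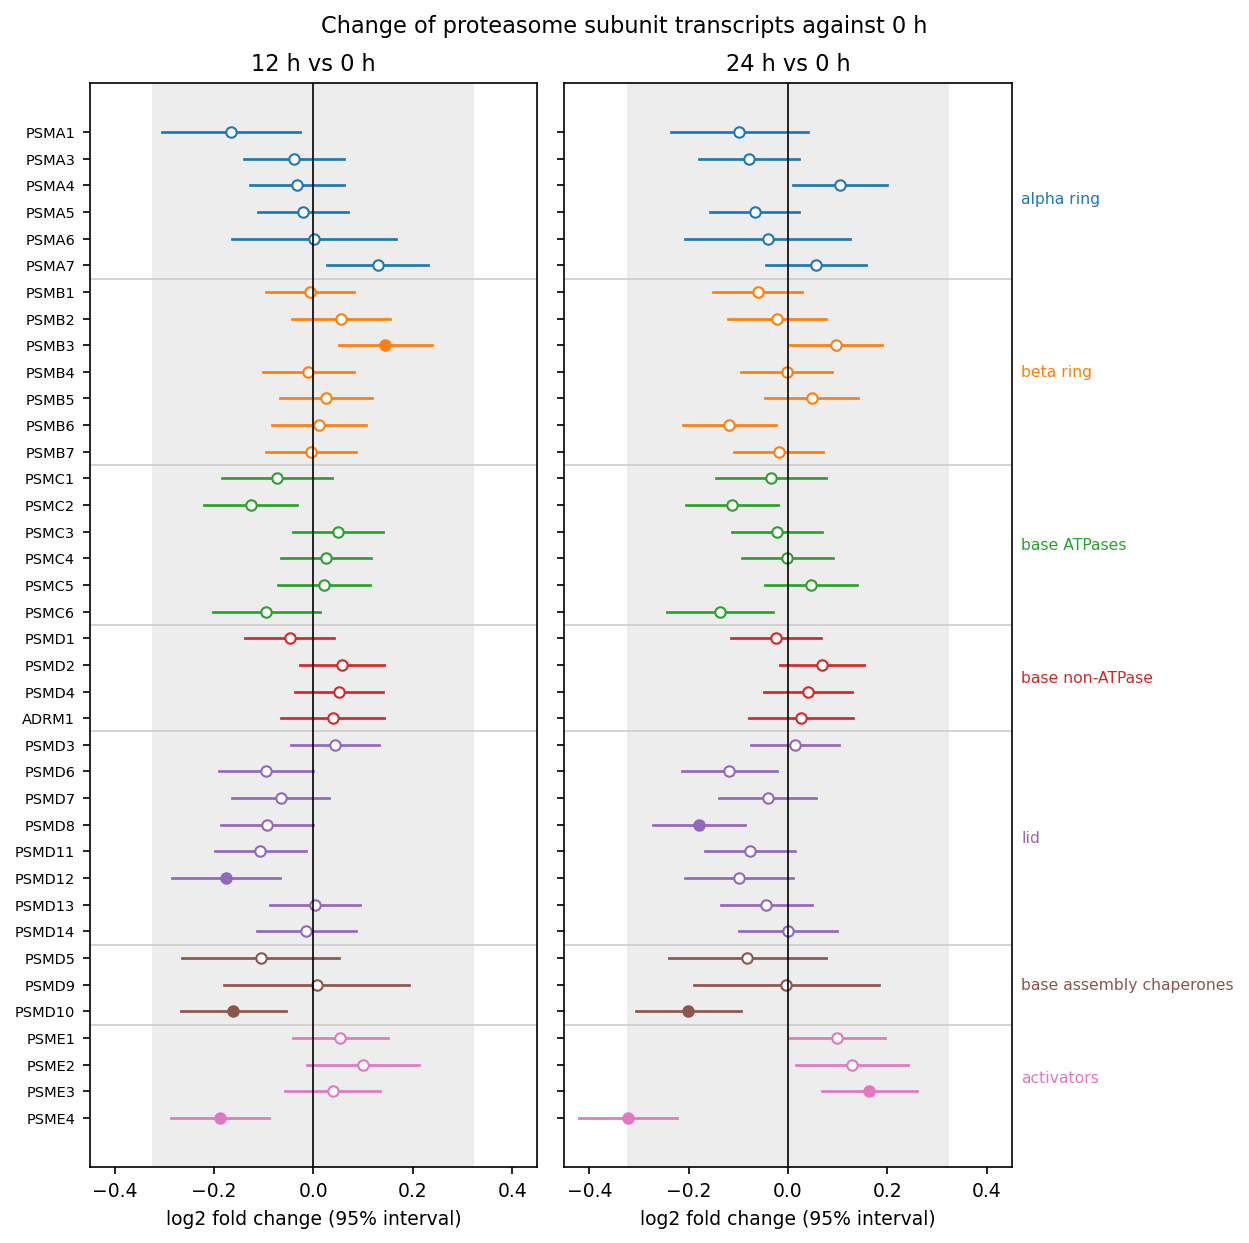
Log2 fold change with its 95% interval at 12 h (left) and 24 h (right) against 0 h for 38 members (without PSMA2), coloured by class; filled points passed an adjusted p of 0.05 and the grey band is 1.25-fold either way. The interval of PSME4 at 24 h is the one that leaves the band.

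The genes that act around the proteasome were counted from lists of pathway genes. Over all tested genes 11.6% passed at 12 h and 16.3% at 24 h. Among the 4300 abundant protein-coding genes 25.9% and 32.3% did. Of 5 chaperones that assemble the core, 0 passed at 12 h (1 had an unadjusted p under 0.05) and 1 at 24 h, PSMG1 (-0.21, SE 0.069, adjusted p = 0.0382, edgeR). That call was lost in 8 of 16 alternatives, among them without either 0 h library (adjusted p = 0.300 and 0.0565), without 12 h replicate 3 (0.0520) and without 24 h replicates 1, 2 and 3 (0.149, 0.0888 and 0.0599). Of 9 further lid and regulatory genes, 1 passed at 12 h and 3 at 24 h, all lower. Over all genes 6.75% and 8.49% passed downward. TXNL1, a thioredoxin-like protein bound to the lid, had a log2 fold change of -0.22 at 12 h (SE 0.051, adjusted p = 0.00348). At 24 h it was -0.21 (SE 0.051, adjusted p = 0.00358). Both calls of TXNL1 were lost without 0 h replicate 1 (0.191 and 0.146), and that at 24 h without 24 h replicate 1 (0.0508). UCHL5, a deubiquitinase of the regulatory particle, fell by 0.22 at 24 h (SE 0.057, adjusted p = 0.00555), and the call was lost without 0 h replicate 1 (0.196) or 24 h replicate 1 (0.0517). ECPAS, an adaptor and scaffold protein of the proteasome, had a log2 fold change of -0.14 at 24 h (SE 0.044, adjusted p = 0.0288, edgeR). That call was lost without 0 h replicate 1 (0.270), 24 h replicate 1 (0.0517), 2 (0.128) or 3 (0.101), and with no filter on low counts (0.0557). USP14, another deubiquitinase of the regulatory particle, did not pass, with -0.02 at 12 h and 0.00 at 24 h.

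Of 6 ubiquitin and E1 genes, 0 passed at 12 h (UBA1 had an unadjusted p under 0.05) and 1 at 24 h, UBA1 again, the main ubiquitin-activating enzyme (0.14, SE 0.047, adjusted p = 0.0326, edgeR). Without 0 h replicate 1 its adjusted p was 0.613, and without 24 h replicate 1, 2 or 3 it was 0.146, 0.0595 or 0.0924. Of 8 genes of shuttle factors and the segregase, 2 passed at 12 h and 3 at 24 h. Beside both lists, 11.6% of all genes passed at 12 h and 16.3% at 24 h. Among the abundant protein-coding genes 25.9% and 32.3% did. VCP, the segregase that extracts ubiquitin-tagged proteins, had a log2 fold change of -0.16 at 24 h (SE 0.041, adjusted p = 0.00577), which was lost without the unnumbered 0 h library (0.0805). The shuttle factors UBQLN2 (-0.16 and -0.14) and UBQLN4 (0.14 and 0.19) passed at both times in opposite directions. All 4 of these calls were lost without 0 h replicate 1, with adjusted p of 0.0764 and 0.0836 for UBQLN2 and 0.384 and 0.0872 for UBQLN4. Those of UBQLN2 at 24 h were also lost without the unnumbered 0 h library (0.0760) or 24 h replicate 1, 2 or 3 (0.0725, 0.0618 and 0.0965). Those of UBQLN4 at 12 h were lost without 12 h replicate 2 or 3 (0.0853 and 0.0989) or 24 h replicate 1, 2 or 3 (0.0709, 0.0636 and 0.0709). After correction for GC content and length, the adjusted p was 0.0585 for TXNL1, 0.126 for BACH1 and 0.200 for UBQLN4 at 12 h, and 0.115 for PSMG1 and 0.108 for UBA1 at 24 h.

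The 10 genes of the NRF1 pathway differed from the subunits in how many passed. At 12 h 5 of 10 passed as lower, at 24 h 6 of 10 and between 12 h and 24 h 2 of 10. None passed as higher. Over all genes 6.75%, 8.49% and 1.61% passed as lower. Among the 4300 protein-coding genes with a mean of at least 50 CPM, 25.9%, 32.3% and 7.12% passed in either direction. The lists were drawn up with earlier results of these data known, so the difference from the subunits was not tested. NFE2L1, the gene of NRF1 itself, had 620 and 589 CPM at 0 h, 569, 512 and 537 CPM at 12 h, and 476, 500 and 487 CPM at 24 h. Its groups did not overlap, and each later time was lower. The log2 fold change of NFE2L1 was -0.17 at 12 h (SE 0.045, adjusted p = 0.0132, edgeR), -0.31 at 24 h (SE 0.045, adjusted p = 5.01e-06) and -0.14 between 12 h and 24 h (SE 0.041, adjusted p = 0.0454). The 24 h call was kept in all 16 alternatives. The 12 h call of NFE2L1 was lost without 0 h replicate 1 (0.256), 12 h replicate 2 (0.0518) or 3 (0.0524) and with the 2 time points alone (0.0583), and the step from 12 h to 24 h was lost without 12 h replicate 1 (0.116) or 3 (0.135) or 24 h replicate 1 (0.248), 2 (0.0927) or 3 (0.194).

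SYVN1 encodes the ubiquitin ligase HRD1 of the endoplasmic reticulum, which directs NRF1 to degradation. It had 150 and 155 CPM at 0 h, 137, 132 and 138 CPM at 12 h, and 98.9, 108 and 106 CPM at 24 h. The groups of SYVN1 did not overlap, and its log2 fold change was -0.17 at 12 h (SE 0.047, adjusted p = 0.0154, edgeR), -0.55 at 24 h (SE 0.047, adjusted p = 3.41e-10) and -0.38 between 12 h and 24 h (SE 0.043, adjusted p = 1.31e-06). The 12 h call of SYVN1 was lost without either 0 h library (0.0642 and 0.115) and with the 2 time points alone (0.0510), and the other calls were kept in every alternative run. MAFG, a small MAF partner of NRF1, had 51.2 and 51.7 CPM at 0 h, 44.1, 42.1 and 43.7 CPM at 12 h, and 38.1, 40.2 and 40.7 CPM at 24 h. It was lower by -0.25 at 12 h (adjusted p = 0.00203, SE 0.054) and by -0.37 at 24 h (SE 0.054, adjusted p = 4.91e-06), in all 16 alternatives each. The other small MAF genes MAFF and MAFK did not pass. MAFK had 34.9 and 40.3 CPM at 0 h and 42.7, 42.4 and 40.4 CPM at 24 h. Its log2 fold change at 24 h was 0.16 (SE 0.062, adjusted p = 0.0842, edgeR), opposite in sign to MAFG. Opposite-strand exons cover 23.9% of its canonical transcript. MAFF had -0.17 at 24 h (SE 0.133, adjusted p = 0.472).

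NFE2L2, the gene of the related stress factor NRF2, had 83.8 to 88.9 CPM at 0 h, 72.0 to 78.1 CPM at 12 h and 73.9 to 77.3 CPM at 24 h, with log2 fold changes of -0.21 (SE 0.050, adjusted p = 0.00555, edgeR) and -0.19 (SE 0.050, adjusted p = 0.00852). Both calls of NFE2L2 were lost without 0 h replicate 1 (0.169 and 0.155), and that at 24 h without 24 h replicate 1 (0.0592). BACH1, a repressor at the same elements, was lower by -0.23 (SE 0.062, adjusted p = 0.0143) and -0.25 (SE 0.062, adjusted p = 0.00378), both lost without 0 h replicate 1 (0.288 and 0.108) and the 12 h call also without 12 h replicate 1 (0.0666). FBXW7, a ubiquitin ligase for NRF1, was lower at 24 h (-0.26, SE 0.068, adjusted p = 0.0061), lost without 0 h replicate 1 (0.153) or 24 h replicate 2 (0.0611). DDI2, the protease that releases NRF1, and NGLY1, the deglycosylase that edits it, did not pass at any time. Their log2 fold changes at 24 h were 0.04 (95% interval -0.08 to 0.15) and -0.11 (-0.24 to 0.01).

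**Figure D5:**
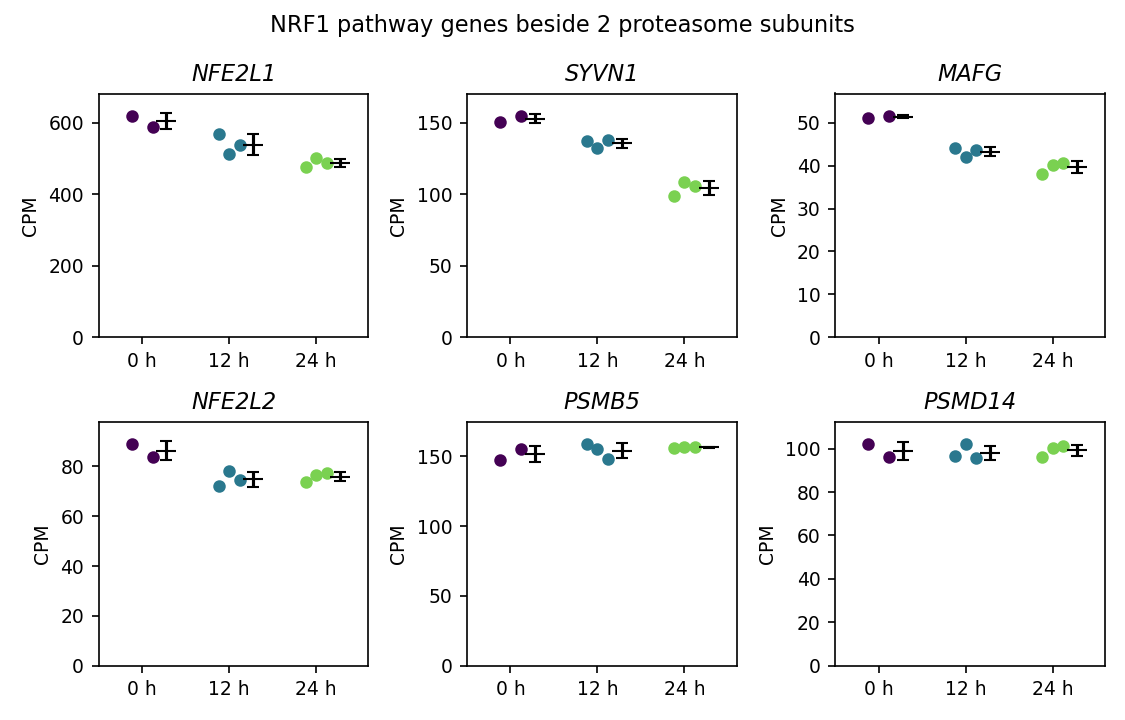
CPM by library for 4 NRF1 pathway genes and for the subunits PSMB5 and PSMD14, with the mean and SD beside the points; the y axes start at 0. NFE2L1 goes from 589 to 620 CPM at 0 h to 476 to 500 CPM at 24 h, while PSMB5 is at 147 to 155 CPM and then 156 to 157 CPM.

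The transcripts of NRF1 and of the subunits are thus given side by side, without a test between them. Whether the members are targets of NRF1 in these cells was not tested. The NFE2L1 and MAFG transcripts were lower at both times, while MAFK had log2 fold changes of 0.09 and 0.16 and did not pass. The median member differed from 0 h by -0.0047 and -0.022 on the log2 scale. PSME4, with 2 TGANNNNGC matches, fell by 0.32 on the log2 scale at 24 h. PSME2, also with 2 matches, had a log2 fold change of 0.13 at 24 h and did not pass. PSMA5, which held the most matches of any member (5 in its promoter), had a log2 fold change of -0.02 at 12 h and -0.07 at 24 h and did not pass. PSMA5 was chosen after its values were seen, and the number of matches was not tested against the changes. These are mRNA counts, and neither the protein nor the activity of the proteasome was measured in them.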

How the data were processed

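LNCaP mRNA from 8 libraries was sequenced in pairs of reads. Per the labels and the methods, the authors trimmed reads with cutadapt, aligned them to GRCh38.p13 with STAR and counted reads per gene with featureCounts. The deposited values are raw counts. The use of strand and of shared exons is not given in the sources used here. One library at time 0 was left out by the authors on quality.

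Genes were filtered with filterByExpr, normalized by TMM and fitted with the robust quasi-likelihood test of edgeR 4.0.16 in R 4.3.3, with 1 coefficient per time point over all 8 libraries. P-values were adjusted by Benjamini-Hochberg over 21071 genes, and the spread between libraries was a coefficient of variation of 5.59%. A gene passed at an adjusted p of at most 0.05 and was called where it also changed 1.5-fold. DESeq2 1.42.0 was an alternative. Steps were tested on simulated data. Lengths and overlaps came from GENCODE 44, whose coordinates equalled those in the count table for all 30996 genes of the same versioned ID. Libraries of 1 group differed by more than sampling noise (chi-square per degree of freedom 5.32 to 15.2). The labels call the samples biological replicates, and the methods describe replicate wells. Neither says that replicates were separate cultures beyond separate wells, so p-values measure the spread between these libraries. Depth gave a floor of 3 counts, or 0.0309 to 0.0409 CPM, for counting error only.

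The members and lists were chosen with earlier results of these data known. Genes named were the catalytic subunits, the activators, the smallest p of each class, every gene that passed, and the highest and lowest levels of each class. PSMA5, PSMD14, USP14, MAFF, MAFK, DDI2 and NGLY1 were chosen after their values were seen. One luminal marker of the list is not reported here.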

Additional observations from a re-analysis of the deposited data

How the results depend on the processing

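Of the values of single genes, 848 recomputed under an alternative kept their direction and their side of the threshold, 91 no longer passed, 32 came to pass and 19 changed sign, all of them near 0 and none past the threshold in either fit. PSMB7 at 12 h (-0.0047) was 0.00094 with RLE, 0.0088 with upper-quartile normalization, 0.0047 with no filter, 0.0044 with a mean of at least 100 counts, 0.0013 by DESeq2, 0.0041 among protein-coding genes, and 0.011, 0.0018 and 0.0030 without the unnumbered 0 h library, 12 h replicate 2 and 24 h replicate 2. After the GC and length correction PSMB7 was 0.014 at 24 h (-0.019) and 0.019 between 12 h and 24 h (-0.014), and PSMB6 was -0.031 at 12 h (0.012). With a library left out, the values at 12 h ran from -0.0099 to 0.011 for PSMB7, from -0.0096 to 0.043 for PSMB6 (below 0 without 0 h replicate 1, and -0.0037 without 12 h replicate 3), from -0.014 to 0.075 for PSMB5 (below 0 without 0 h replicate 1) and from -0.0014 to 0.080 for PSME3 (below 0 without 12 h replicate 2). Between 12 h and 24 h they ran from -0.034 to 0.0048 for PSMB7 (above 0 without 24 h replicate 1), from -0.0051 to 0.038 for PSMB5 (below 0 without 12 h replicate 3) and from -0.013 to 0.048 for PSME2 (below 0 without 24 h replicate 2). The count of members that passed at 12 h (4) stayed at 4 after the GC and length correction with PSMD8 and PSMD14 in place of PSMD10 and PSMD12. It was 1 with the 2 time points fitted alone and 1 at an adjusted p of 0.01, and 0 to 6 with a library left out. The count was 0 without 0 h replicate 1, 1 without 12 h replicate 3, and 2 without 12 h replicate 1 or any 1 of the 24 h libraries. At 24 h (4) it was 8 after correction for GC content and length, 8 at an adjusted p of 0.1, and 2 to 7 with a library left out (2 without 0 h replicate 1, 7 without 12 h replicate 1). Between 12 h and 24 h (0) it was 1 with a minimum mean of 100 counts, 3 by DESeq2, 2 among protein-coding genes alone, 3 after the GC and length correction, 3 at an adjusted p of 0.1 and 0 to 2 with a library left out (1 without 12 h replicate 1, 2 without 12 h replicate 2). The median log2 fold change of members at 12 h was 0.0088 with upper-quartile normalization and 0.0091 after the GC and length correction, and ran from -0.0136 to 0.0138 with a library left out (0.0128 without the unnumbered 0 h library, 0.0138 without 12 h replicate 2). At 24 h it was 0.0074 after that correction and ran from -0.036 to -0.0092. The sign of a median this near 0 depends on these settings.

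Over all genes, 222 were called at 12 h, 140 with a mean of at least 100 counts, 123 by DESeq2, and 78 to 300 with a library left out (78 without 0 h replicate 1). At 24 h 516 were called, 322 with that minimum, and 265 to 567 with a library left out (265 without 0 h replicate 1). Between 12 h and 24 h 38 were called, 23 by DESeq2, 25 among protein-coding genes alone, and 16 to 46 with a library left out (16 without 24 h replicate 1 or 2, 20 without 12 h replicate 3). The cause of these shifts was not tested. A replicate block could be fitted only for 12 h against 24 h, since the numbers at 0 h match too few. Deviations of same-numbered libraries correlated at 0.119, 0.030 and 0.029 over 13464 genes, and those of other pairs at -0.10 to 0.073. With 3 libraries per group these values cannot decide whether same-numbered libraries were paired. With the block 3 members passed (PSMA4, PSMB6 and PSME4) in place of 0, and 42 genes were called in place of 38. With 2 libraries at 0 h, that group limits every comparison with it.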

Other observations

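Rows whose names begin like those of the subunits but which encode other products were read after their values were seen. PSMC3IP, a cofactor of meiotic recombination and not a subunit, had 4.98 and 6.72 CPM at 0 h and 6.40 to 7.83 CPM later. Its log2 fold change was 0.32 at 12 h (SE 0.119, adjusted p = 0.0798, edgeR) and 0.28 at 24 h (SE 0.119, adjusted p = 0.105), and it did not pass. PSMG3-AS1, a noncoding RNA antisense to a core assembly chaperone gene, had 4.53 and 4.18 CPM at 0 h, 3.23 to 3.42 CPM at 12 h and 2.89 to 3.57 CPM at 24 h. It was lower at 24 h (log2 fold change -0.44, SE 0.136, adjusted p = 0.0240), while PSMG3 itself did not pass (0.09, SE 0.071, adjusted p = 0.484). Without stated use of strand, reads of the pair cannot be told apart. PSMA3-AS1 had 2243 to 3229 counts and did not pass at either time against 0 h.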
